A study of Mus musculus with 2 samples.

Results

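Cells carrying transcripts of the red fluorescent reporter tdTomato were compared with cells carrying none, within each of 2 single-cell RNA libraries from the mouse basolateral amygdala. A cell was counted as tdTomato-positive with at least 2 UMIs (unique molecular identifiers, each standing for 1 captured RNA molecule) in the reporter column, and as tdTomato-0 with none. Of 4305 cells that passed the filters, 359 (8.34%) were positive and 3093 (71.8%) were at 0. The vehicle library gave 136 positive cells of 2354 (5.78%) and the FGF21 library 223 of 1951 (11.4%). Both sides were chosen by the reporter count itself, so the reporter values below are a description, without a test.

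The study profiled sorted amygdala cells of adult C57BL/6 mice, with the aim of describing cells that express beta-klotho. One group received FGF21 at 1 mg/kg once daily over 3 days and the other received vehicle on the same schedule. Tissue of 3 mice was pooled in each group, dissociated with pronase and actinomycin D, an inhibitor of transcription, and sorted for tdTomato fluorescence and for viability by Hoechst dye. Most kept cells nevertheless had no reporter UMI. Here tdTomato-0 means that no reporter transcript was counted, not that the cell lacked the fluorescent protein. The sources used here do not give the mouse line or vector that carried tdTomato, nor the promoter or Cre driver behind it. Each pool yielded 1 library, so the vehicle and FGF21 libraries served as 2 repeats of the same comparison, and differences between the treatments were not examined. They share no animals, but any effect of FGF21 on the comparison cannot be told apart from the spread between libraries.

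FGF21 is a hormone made mainly by the liver that acts on FGF receptors only where the co-receptor beta-klotho, encoded by Klb, is present. FGF receptors are tyrosine kinases at the cell surface, and in the brain Fgfr3 is a known gene of astrocytes while Fgfr2 is prominent in oligodendrocytes. tdTomato is a fluorescent protein used to mark the cells of a genetically defined population. In lines where Cre recombinase switches it on, the mark persists in a cell and its descendants, so a tdTomato transcript need not coincide with current expression of the gene behind the driver.

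The reporter was sparsely counted. Among positive cells, 96 from vehicle and 133 from FGF21 had exactly 2 UMIs, the smallest count that qualified, and the highest cells had 7 and 8. Just outside the threshold, 392 and 461 cells had 1 UMI and were left out of both sides. Depth was greater at higher reporter counts: the median total was 4139.5 UMIs in vehicle cells at 0, 4688 in those with 1 and 4961.5 in those with 2, and in the FGF21 library 6172, 7941 and 8680. Each positive cell was therefore paired with the tdTomato-0 cell of the same library nearest in total UMIs, which kept 135 vehicle pairs (median 5218 against 5215 UMIs) and 222 FGF21 pairs (9077 against 9079.5). One positive cell in each library had no partner near enough in depth. The share of mitochondrially encoded UMIs was similar, with medians of 5.43% against 5.46% and 5.69% against 5.59%. Of the cell labels, 12 occurred in both tables, 7 of them among cells kept.

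Cell classes were assigned by clustering without the reporter and by marker genes, and are called "-like" for that reason. Different clusters held most of a class in each library for microglia-like cells (cluster 7 with 1401 vehicle and 25 FGF21 cells, cluster 11 with 9 and 866) and precursor-like cells (cluster 3 with 356 and 40, cluster 6 with 23 and 538). Every comparison of sides was therefore made inside 1 library. The tdTomato level of a class, as reporter UMIs in 1000000 of its UMIs (CPM), was highest in astrocyte-like and vessel-associated cells and low in microglia-like and myelinating cells. Astrocyte-like cells, the glia that clear glutamate and contact vessels, had a level of 212 CPM in the vehicle library (95% Poisson interval 170 to 261) and 197 (173 to 224) in the FGF21 library. Mural-like cells, which wrap vessels as pericytes or smooth muscle, had 180 (145 to 219) and 137 (86.7 to 205). Endothelial-like cells had 197 (102 to 344) and 195 (93.5 to 359), and fibroblast-like cells 202 (110 to 339) and 331 (176 to 566). These intervals overlapped, so no order among the 4 classes is drawn. All intervals on counts cover counting error only.

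Oligodendrocyte precursor-like cells, the dividing progenitors of myelinating cells, held a middle level of 71.7 (61.6 to 83.0) and 80.2 (72.6 to 88.3) CPM. Microglia-like cells, the resident immune cells, had 45.6 (40.3 to 51.4) and 47.8 (42.2 to 53.9). The intervals of these 2 classes did not overlap each other or those of astrocyte-like cells in either library. They leave out the spread between cells and animals, so this describes the libraries and is no test. Oligodendrocyte-like cells had 51.8 (29.0 to 85.4) and 33.1 (21.6 to 48.5). Choroid plexus-like cells, which secrete cerebrospinal fluid, had 186 (132 to 254) in the vehicle but 91.8 (50.2 to 154) in the FGF21 library. Erythroid-like cells had 2 UMIs in 47 vehicle cells, both in 1 cell, and none in 20 FGF21 cells. They serve below as a reference for background, and whether they lack the reporter was not tested.

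**Figure D1:**
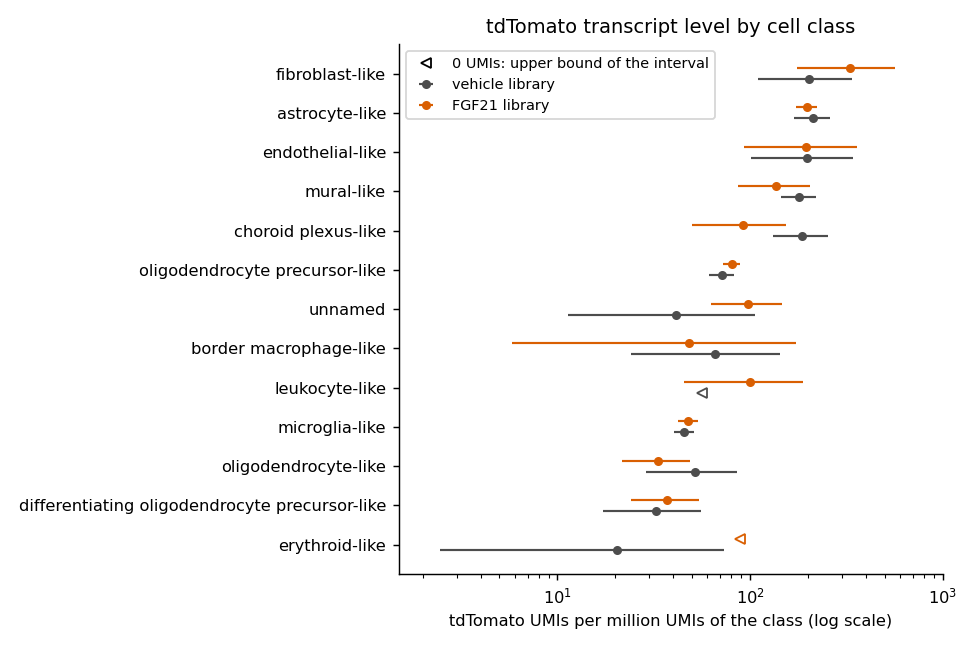
tdTomato level of each cell class in CPM (horizontal log axis) in the vehicle (grey) and FGF21 (orange) libraries, with exact 95% Poisson intervals; open triangles give the upper bound where no UMI was found. Astrocyte-like cells sit at 212 and 197 and microglia-like cells at 45.6 and 47.8.

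Because positivity depends on depth, the share of positive cells in each class is given both as counted and after thinning. As counted, 19.6% (exact Clopper-Pearson 95% interval 12.4 to 28.6) of vehicle and 29.6% (23.3 to 36.5) of FGF21 astrocyte-like cells had at least 2 reporter UMIs. Microglia-like cells had 1.91% (1.27 to 2.77) and 4.04% (2.85 to 5.55). Among oligodendrocyte precursor-like cells the shares were 11.3% (8.33 to 15.0) and 16.6% (13.7 to 19.9). With each cell thinned to 2000 UMIs and shallower cells left out, the share with at least 1 reporter UMI was 20.3% (12 to 30.8) and 28.7% (22.0 to 36.2) in astrocyte-like cells. It was 24.7% (18.2 to 32.2) and 18.9% (7.96 to 35.2) in mural-like, 14.4% (11 to 18.4) and 15.3% (12.5 to 18.5) in oligodendrocyte precursor-like, and 9.12% (7.64 to 10.8) and 8.62% (6.84 to 10.7) in microglia-like cells. Among oligodendrocyte-like cells, 8 of 38 vehicle cells (21.1%, 9.55 to 37.3) and 4 of 82 FGF21 cells (4.88%) held a reporter UMI after thinning. Thinning left out 23 and 29 astrocyte-like, 27 and 4 mural-like, 5 and 4 oligodendrocyte precursor-like, 61 and 21 microglia-like, and 3 and 2 oligodendrocyte-like cells. Each thinning was 1 random draw. At 1000 UMIs, 2 of 41 vehicle oligodendrocyte-like cells (4.88%) held a reporter UMI, against 18 of 88 vehicle astrocyte-like cells (20.5%).

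Free RNA in the suspension can place a reporter UMI in a cell that does not express it. Among erythroid-like cells, with median depths of 2017 and 2256 UMIs, 0 of 24 vehicle and 0 of 11 FGF21 cells deep enough for thinning held a reporter UMI, which allows shares of up to 14.2% and 28.5%. The thinned microglia-like shares lie below these bounds, so a reporter level above the background was not detectable for that class from this comparison. The intervals of the thinned astrocyte-like and precursor-like shares also reach below these bounds in both libraries, as does that of FGF21 mural-like cells. Too few erythroid-like cells were deep enough to set these classes apart by thinned shares. Over all erythroid-like cells the level was 20.4 CPM (2.46 to 73.5) for vehicle and 0 (up to 88.9) for FGF21. The CPM intervals of astrocyte-like, endothelial-like and fibroblast-like cells lie above the upper bounds of 73.5 and 88.9 in both libraries. Those of mural-like and choroid plexus-like cells do so in the vehicle library alone. The CPM intervals of precursor-like and microglia-like cells do not lie above these upper bounds in either library, though they lie above 20.4 and 0. This comparison therefore cannot decide whether these classes exceed the background. Median depths were 4182 and 6033 UMIs in microglia-like cells and 4169 and 6156 in astrocyte-like cells.

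Set against cells of equal depth, tdTomato-positive cells held more astrocyte-like and fewer microglia-like cells in both libraries. Astrocyte-like cells were 20 of 135 positive cells (14.8%) against 2 of 135 matched cells at 0 (1.48%) in the vehicle library, a difference of 13.3 percentage points (95% interval 6.65 to 20.6). In the FGF21 library they were 58 of 222 (26.1%) against 5 (2.25%), a difference of 23.9 points (17.5 to 30.4). Microglia-like cells were 20.0% of positive against 44.4% of matched vehicle cells, a difference of -24.4 points (-35.3 to -12.9). They were 16.2% against 42.3% in the FGF21 library, a difference of -26.1 points (-34.3 to -17.5).

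Oligodendrocyte precursor-like cells were the largest class among positive cells, and their shares did not differ from those at 0 beyond the intervals. They made up 31.9% of positive and 30.4% of matched vehicle cells, and 43.2% and 38.3% of FGF21 cells, with differences of 1.48 (-10.0 to 12.9) and 4.95 (-4.49 to 14.3) points whose intervals include 0. Mural-like cells were 17% against 5.19% in the vehicle library (11.9 points, 3.97 to 19.9) and 2.25% against 0.901% in the FGF21 library (1.35 points, -1.42 to 4.38). Choroid plexus-like cells showed a difference in the vehicle library, 8.15% against 0.741% (7.41 points, 2.20 to 13.4), and none beyond its interval in the FGF21 library, 1.80% against 1.35% (0.450 points, -2.41 to 3.40). Oligodendrocyte-like cells were 0.741% against 4.44% and 1.35% against 7.66%, and the interval excluded 0 in the FGF21 library alone. All these intervals treat the cells of a pool as independent and leave out the pairing by depth. They describe each library and are not a test.

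**Figure D2:**
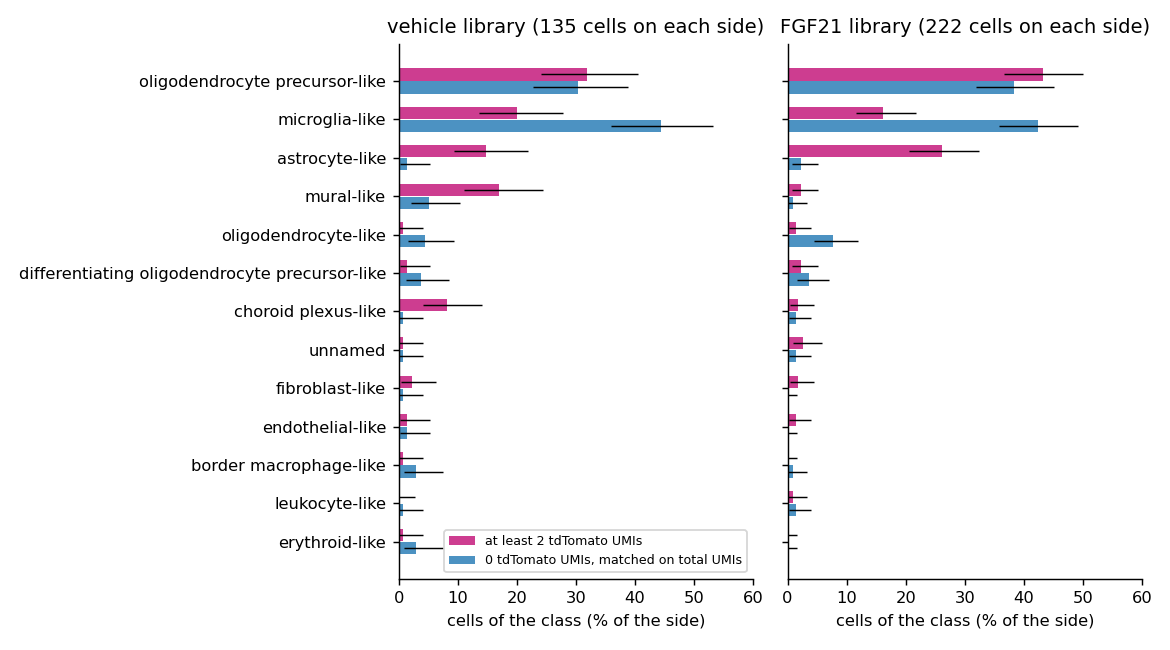
Share of each cell class (horizontal axis, percent) among tdTomato-positive cells (pink) and depth-matched tdTomato-0 cells (blue), vehicle library left and FGF21 library right, with exact 95% intervals as black lines. Astrocyte-like bars are longer and microglia-like bars shorter on the positive side in both libraries, while the oligodendrocyte precursor-like bars nearly coincide.

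Class shares were also taken at each reporter count. Astrocyte-like cells formed 6.14%, 11.5% and 23.1% of vehicle cells with 1, 2 and 3 or more reporter UMIs, and 12%, 18.2% and 37.8% of FGF21 cells. Their depth-matched partners at 0 held 2.05%, 1.04% and 2.56% for vehicle and 4.13%, 3.79% and 0% for FGF21. Microglia-like cells went from 52.7% through 22.9% to 12.8% of vehicle cells and from 40.7% through 24.2% to 4.44% of FGF21 cells. Their matched partners, which are deeper at higher reporter counts, went the same way, with 59.3%, 51% and 30.8% for vehicle and 49.3%, 45.5% and 34.4% for FGF21. Mural-like cells went from 8.95% through 13.5% to 25.6% of vehicle cells, and were 1.30% and 3.33% of FGF21 cells with 1 and with 3 or more UMIs. Since the cells of a library come from 1 pool, these are descriptions of the libraries.

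**Figure D3:**
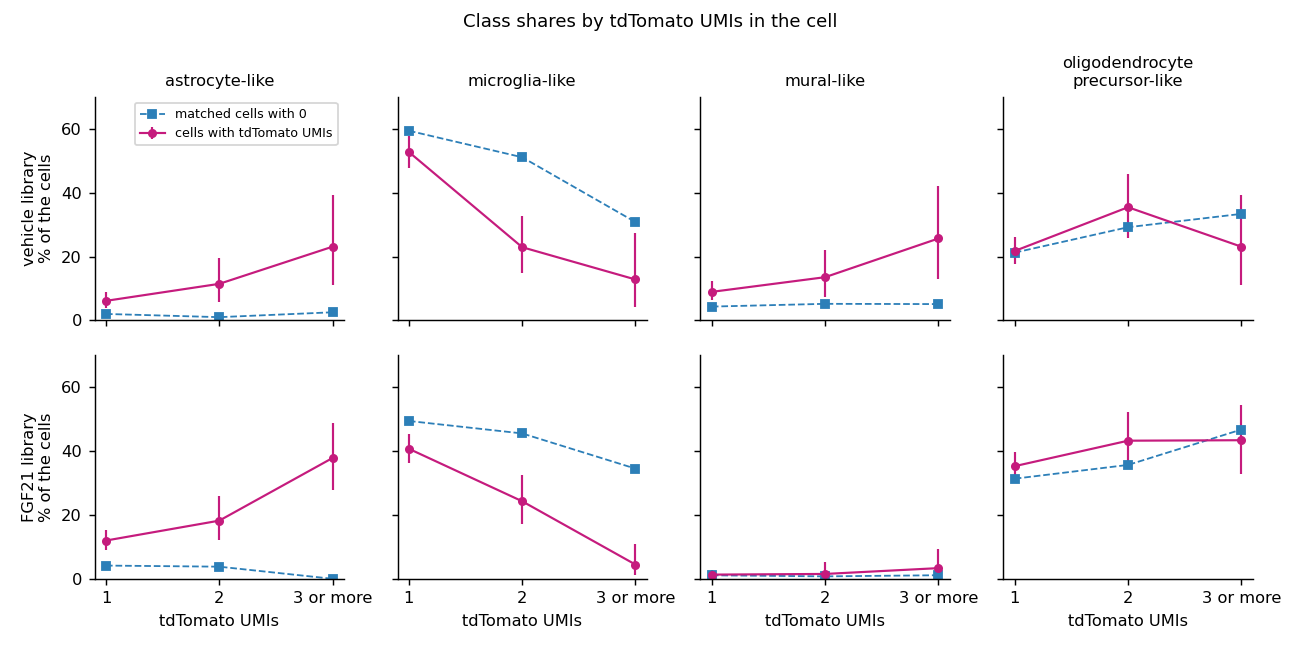
Percent of cells in 4 classes (vertical axis) among cells with 1, 2 and 3 or more tdTomato UMIs (pink circles, exact 95% intervals) and among their depth-matched partners at 0 (blue squares), vehicle library on top and FGF21 library below. Astrocyte-like shares climb to 23.1% and 37.8% and microglia-like shares end at 12.8% and 4.44%, while the matched partners end at 2.56% and 0% for astrocyte-like and 30.8% and 34.4% for microglia-like cells.

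Gene by gene, UMIs were summed over the cells of each side and library, and the 4 sums were tested with edgeR's quasi-likelihood test with the library as a block. Of 12771 genes tested, 842 passed at an adjusted p under 0.05 (6.59%), 503 higher (3.94%) and 339 lower (2.65%) in tdTomato-positive cells, and 824 of the 842 had the same direction in both libraries, as did 59.3% of all genes tested. The median log2 change over all tested genes was 0.05. With 2 libraries the fit has 1 residual degree of freedom and borrows its spread from all genes, so a gene whose libraries differ can still pass, and a permutation of 2 pairs could not go below p = 0.5. DESeq2 called 80 higher and 39 lower, all 119 also called by edgeR. Pairing from the shallowest cell instead of the deepest gave 180 higher and 111 lower, so the counts depend on which cells at 0 were drawn.

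Among the 12 genes with the highest ratios, Gja1, the gap junction protein connexin 43 (GRCm38, chromosome 10, 56377330 to 56402513), had 366 UMIs in positive against 53 in matched vehicle cells, and 1333 against 208 in the FGF21 library, a log2 change of 2.72 (SE 0.167, edgeR adjusted p = 3.43e-20). Aqp4, the water channel of astrocyte endfeet (chromosome 18, 15389496 to 15410982), had 117 against 20 and 503 against 81 UMIs, a log2 change of 2.60 (SE 0.204). Itih5, a hyaluronan-binding matrix protein with its highest level in fibroblast-like cells (5182 and 5045 CPM, against 111 and 101 in astrocyte-like cells), had 139 against 23 and 224 against 36. Slc7a11, the cystine-glutamate exchanger, had 82 against 14 and 208 against 37, and Slc39a12, a zinc importer, 70 against 8 and 231 against 49. The positive side was higher in both libraries for each of these genes. Id4, a transcriptional inhibitor of neural progenitors and astrocytes, Maob, the monoamine oxidase of astrocytes, Cyp4f15, Btbd17 and Sorcs2 completed the highest group beside the receptors S1pr1 and Grin2c, all with log2 changes between 2.13 and 2.57.

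All 12 astrocyte markers passed higher, against the 3.94% of all genes, and their summed level was 3.22 times that of matched cells in the vehicle (95% interval 3.03 to 3.43) and 3.61 times (3.49 to 3.73) in the other. Slc1a2, the main glutamate transporter, had 1721 against 573 and 6226 against 1810 UMIs. Aldoc, a glycolytic enzyme enriched in astrocytes, had 451 against 140 and 1934 against 624. Among 14 other genes of astrocyte transport, 11 passed higher, including the sodium pump subunit Atp1b2 (1272 against 577 and 3811 against 1548 UMIs), while Glul, glutamine synthetase, moved less, with a log2 change of 0.44 (adjusted p = 0.0234). All 3 metallothioneins, which bind zinc and copper, passed higher, Mt2 with 231 against 51 and 1467 against 483. Of 15 stem cell and radial glia genes 7 passed, with Id4 the most abundant of them, while Sox2 (0.42, adjusted p = 0.150) and Fabp7 (0.26, adjusted p = 0.479) did not. Of 14 cholesterol synthesis genes 8 passed higher, led in UMIs by Msmo1 (120 against 69 and 713 against 257).

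The lists were chosen with results of these data known, so their counts describe the libraries. Of the vessel and surface lists, 7 of 11 tested mural markers passed higher, with summed ratios of 2.31 (2.16 to 2.48) for vehicle and 1.66 (1.51 to 1.82) for FGF21. Rgs5, a pericyte regulator of G protein signals, had 979 against 367 UMIs in the vehicle but 277 against 194 in the FGF21 library. Of 6 tested fibroblast markers 5 passed higher, among them the collagen genes Col1a2 (116 against 50 and 82 against 26 UMIs) and Col1a1 (35 against 21 and 85 against 13). Choroid plexus markers passed for 3 of 4 but leaned on the vehicle library, with a summed ratio of 5.49 (4.96 to 6.09) there and 1.70 (1.60 to 1.81) in the other. Ttr, the thyroxine carrier of that epithelium, had 2179 against 400 and 2716 against 1556 UMIs, and Clic6 102 against 26 but 60 against 60.

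Lower in positive cells were microglial, macrophage and myelin genes. All 13 microglia markers passed lower, against 2.65% of all genes, with summed ratios of 0.657 (0.643 to 0.671) and 0.618 (0.609 to 0.627). P2ry12, the purine receptor that guides microglial processes, had 910 against 1668 and 1582 against 3160 UMIs, and Cx3cr1, the fractalkine receptor, 1933 against 2676 and 4560 against 6889. Of 12 oligodendrocyte markers 11 passed lower, with summed ratios of 0.461 (0.436 to 0.487) and 0.452 (0.441 to 0.464). Mal, a membrane protein of myelin, had 96 against 237 and 393 against 1505 UMIs, and Ermn, a cytoskeletal protein of myelin, 32 against 84 and 106 against 428. Border macrophage markers passed lower for 5 of 7, as for the clotting factor gene F13a1 with 7 against 37 and 5 against 34 UMIs.

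The genes with the lowest ratios by the naming rule came from the same classes: Tlr2, Btk, Adcy7, Irgm2 and Cd300a, genes of myeloid cells, and Mal and Cntn2 of myelin and axon contacts, beside Xlr and Mctp1. Trim36, also named by the rule, had 6 against 18 and 16 against 39 UMIs and missed the threshold (adjusted p = 0.0565). Erythroid genes passed on the strength of the vehicle library alone. Hbb-bs, adult beta globin, had 900 against 2364 UMIs there and 1013 against 990 in the FGF21 library, where the summed erythroid ratio was 1.05 (0.991 to 1.11).

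None of 9 oligodendrocyte precursor markers passed, as for Pdgfra, the growth factor receptor of these cells, with 1134 against 1145 and 3382 against 2918 UMIs (log2 change 0.10, adjusted p = 0.833). None of 8 tested endothelial markers passed either, and the libraries pointed in opposite directions, with summed ratios of 0.404 (0.312 to 0.521) and 2.17 (1.83 to 2.58). Of 7 differentiating precursor markers 2 passed lower, Gpr17 and Bcas1. Neuronal lists held few UMIs. None of 8 general neuron markers passed, with summed ratios of 1.27 (0.979 to 1.65) and 0.997 (0.887 to 1.12). Of 5 inhibitory neuron markers tested Dlx1 passed higher, with 45 against 7 UMIs in the FGF21 and none in the vehicle library. Of 4 immature neuron markers Sox11 passed higher, with 119 against 60 and 233 against 160 UMIs.

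**Figure D4:**
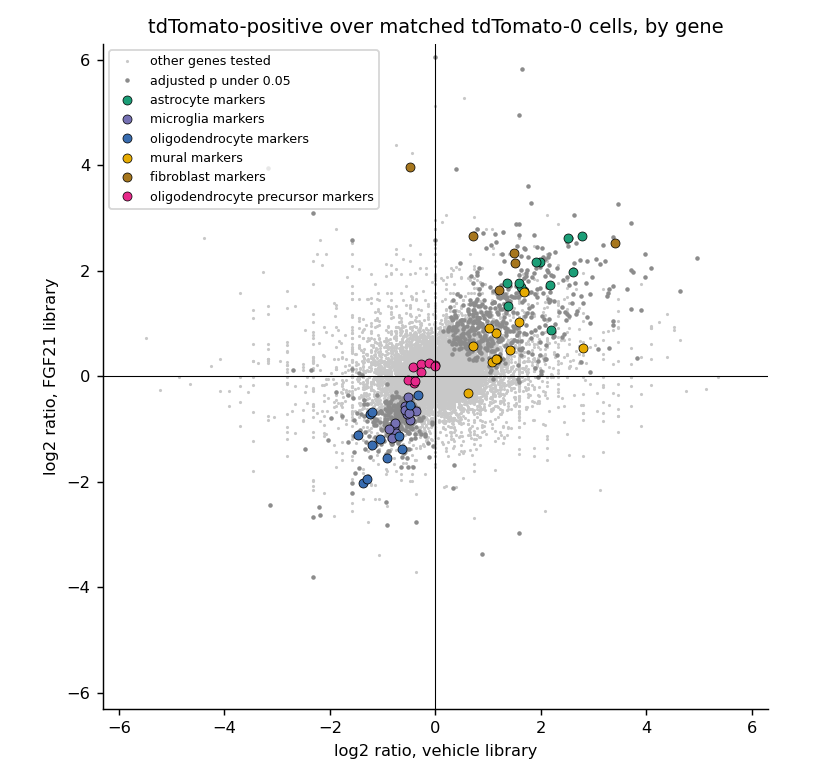
Log2 ratio of tdTomato-positive over depth-matched tdTomato-0 cells for each of 12771 genes, vehicle library on the horizontal and FGF21 library on the vertical axis, with genes past the adjusted p of 0.05 in dark grey and marker lists in colour. Astrocyte markers lie in the upper right, microglia and oligodendrocyte markers in the lower left, and oligodendrocyte precursor markers near the centre.

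For each called gene, the class with its highest level was recorded over all cells. Of the 503 genes higher in positive cells, 282 (56.1%) peaked in astrocyte-like, 85 (16.9%) in mural-like, 84 (16.7%) in choroid plexus-like and 29 (5.77%) in endothelial-like cells. Over all 12771 genes tested, these classes held 7.49%, 8.58%, 15.2% and 10.5%. Microglia-like cells held the peak of 0 of the higher genes and of 142 of the 339 lower ones (41.9%), against 6.56% of all genes tested. Border macrophage-like cells held 69 of the lower genes (20.4%), oligodendrocyte-like cells 56 (16.5%) and leukocyte-like cells 44 (13.0%). Over all genes tested these classes held 10.1%, 6.00% and 10.5%, so the leukocyte-like share was near that of all genes. Fibroblast-like cells were left out of this count for lack of 10 cells in each library.

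Receptor genes were examined next, beginning with those through which FGF21 acts. Klb, the co-receptor (chromosome 5, 65348314 to 65384007), was found as 1 UMI in each of 3 vehicle cells and in no FGF21 cell. Of these cells a fibroblast-like cell was positive, with 7 reporter UMIs, and an oligodendrocyte precursor-like and a microglia-like cell had 1 reporter UMI each. No cell at 0 held a Klb UMI, but at 3 UMIs in all a difference in Klb was not detectable at this depth. Fgfr4 had no UMI in the matched cells.

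Fgfr3 (chromosome 5, 33721674 to 33737068) had 174 UMIs in positive against 40 in matched vehicle cells and 658 against 162 in the FGF21 library, ratios of 4.35 (95% interval 3.07 to 6.3) and 4.04 (3.40 to 4.83). Its log2 change was 2.05 (SE 0.178, edgeR adjusted p = 5.80e-14). Fgfr1 (chromosome 8, 25513654 to 25575718) had 79 against 46 and 278 against 120 UMIs, a log2 change of 1.05 (SE 0.201, adjusted p = 0.000144). Kl, encoding alpha-klotho, the co-receptor for FGF23, had 121 against 25 and 70 against 41 UMIs, a log2 change of 1.5 (SE 0.272, adjusted p = 5.63e-05) with the larger part from the vehicle library. Fgfr2 had 25 against 25 and 121 against 115 UMIs, and its ratios of 1.00 (0.551 to 1.81) and 1.05 (0.804 to 1.36) limit a difference in the FGF21 library to less than 1.36-fold by counting error. Fgfrl1, a receptor-like protein without a kinase, had 50 against 43 and 162 against 131 UMIs (log2 change 0.27, adjusted p = 0.651).

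The receptors differed in the classes that held them. Over all cells, Fgfr3 stood at 1171 and 1031 CPM in astrocyte-like cells and at 62.1 and 84.5 in oligodendrocyte precursor-like, 17 and 44.0 in microglia-like and 13.1 and 41.6 in mural-like cells of the vehicle and FGF21 libraries. Fgfr1 was highest in fibroblast-like cells, with 722 and 433 CPM, and had 267 and 256 in astrocyte-like cells. Fgfrl1 stood at 96.4 and 106 CPM in astrocyte-like and 93.2 and 96.6 in precursor-like cells. Fgfr2 was highest in oligodendrocyte-like cells, with 314 and 424 CPM against 154 and 157 in astrocyte-like cells. Astrocyte-like cells were more frequent among positive cells in both libraries, while oligodendrocyte-like cells were less frequent beyond the interval in the FGF21 library alone. The reporter level of oligodendrocyte-like against astrocyte-like cells was 51.8 against 212 CPM for vehicle and 33.1 against 197 for FGF21. Thinned to 2000 UMIs, 21.1% against 20.3% of vehicle cells and 4.88% against 28.7% of FGF21 cells held a reporter UMI. The 21.1% rests on 8 of 38 cells in 1 random draw. At 1000 UMIs the vehicle shares were 4.88% against 20.5%, and at 4000 UMIs 24.2% against 46.2%. Whether these shares account for the Fgfr2 ratios was not tested. Kl was highest in choroid plexus-like cells, with 1273 and 1167 CPM. With astrocyte-like cells left out of both sides, an alternative added after the data were seen, the log2 change of Fgfr3 was 0.38 (edgeR adjusted p = 0.681), while Fgfr1 (0.94, adjusted p = 0.0111) and Kl (1.55, adjusted p = 4.73e-06) still passed. Fgfr2 went to -1.02 there (adjusted p = 0.05001, just short of the threshold), against 0.05 over all cells. In another alternative added after the data were seen, positive cells were paired with cells at 0 of their own class. The log2 changes were then 0.17 for Fgfr3, 0.048 for Fgfr1, 0.0053 for Kl, -0.13 for Fgfr2 and 0.0046 for Fgfrl1. None of these passed (edgeR adjusted p = 0.999 for each). Mural-like cells, whose reporter intervals overlapped those of astrocyte-like cells, held little Fgfr3.

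**Figure D5:**
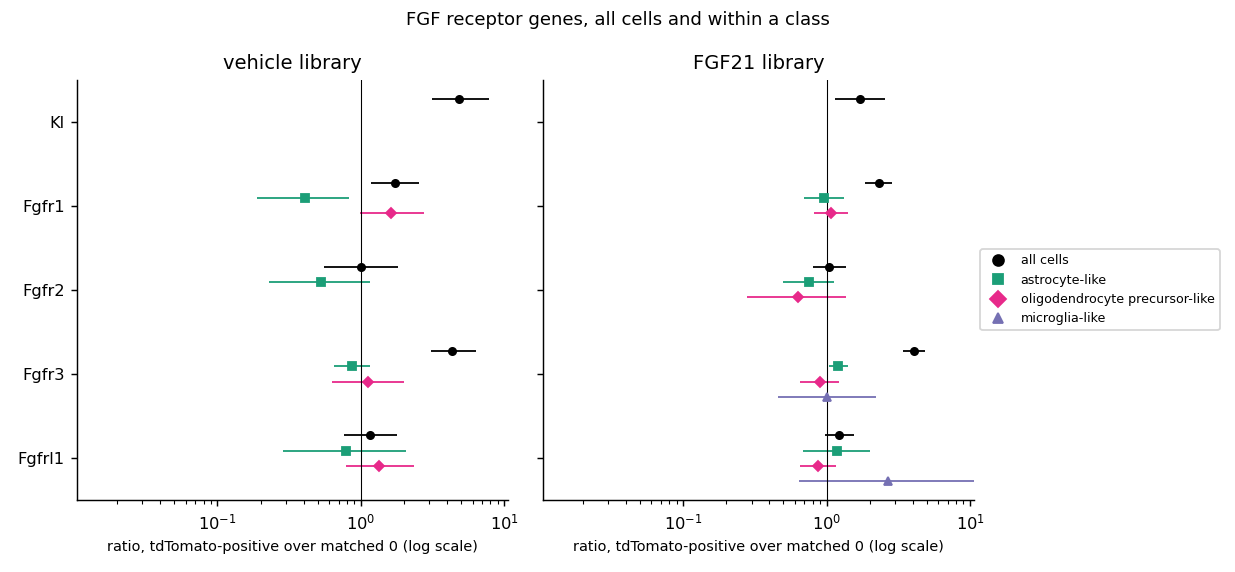
Ratio of CPM in tdTomato-positive over depth-matched tdTomato-0 cells (horizontal log axis, exact 95% intervals) for Kl and 4 FGF receptor genes, vehicle library left and FGF21 library right, over all cells (black) and within 3 classes (colours), where at least 10 UMIs were found. Fgfr3 lies at 4.35 and 4.04 over all cells. Within astrocyte-like cells it lies at 0.867 and 1.21, the latter with an interval above 1, and within oligodendrocyte precursor-like cells at 1.12 and 0.896.

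Of the genes around these receptors, none of 6 adaptors passed, as for Grb2 (129 against 179 and 422 against 474 UMIs, log2 change -0.30, adjusted p = 0.360). None of the 3 FGF ligand genes with enough UMIs passed. Of 14 tested feedback targets of FGF and ERK signalling 2 passed higher, against 3.94% of all genes: Spry2 (0.71, adjusted p = 0.0141) and Spry4 (0.52, adjusted p = 0.0482), inhibitors of receptor kinase signals. The most abundant of them, Ccnd1 (312 against 332 and 1227 against 1264 UMIs), Dusp6 (236 against 319 and 502 against 605) and Spred1 (200 against 201 and 689 against 543), did not pass.

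Outside the FGF group, 154 receptor genes were tested, of which 24 (15.6%) passed higher and 18 (11.7%) lower, against 3.94% and 2.65% of all genes. S1pr1, a receptor for sphingosine-1-phosphate, had 274 against 61 and 1027 against 204 UMIs, a log2 change of 2.26 (SE 0.167, adjusted p = 1.41e-16). The Wnt receptor Fzd2 had 70 against 4 and 328 against 88 UMIs, and its relative Fzd1 8 against 1 and 42 against 11. Grin2c, an NMDA receptor subunit known from astrocytes, had 61 against 12 and 337 against 80. Ntsr2, a neurotensin receptor, had 225 against 51 and 974 against 349 UMIs. Gabrb1, a GABA-A receptor subunit, had 108 against 42 and 441 against 125, and Grm3, a metabotropic glutamate receptor, 81 against 24 and 328 against 141. Thrb, a thyroid hormone receptor, Bmpr1b, a receptor for bone morphogenetic proteins, Lgr4, Egfr and the nucleoside and lipid receptors Adora2b, Lpar4 and S1pr3 also passed higher, with log2 changes between 1.18 and 1.95.

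Pdgfrb, which recruits pericytes, had 72 against 22 and 62 against 20 UMIs, and Notch3, which maintains arterial smooth muscle, 170 against 56 and 81 against 39. Immune receptors went the other way: of 32 tested cytokine, TGF-beta and innate receptors 14 passed lower and 2 higher, against 2.65% and 3.94% of all genes. Fcgr3, a receptor for antibodies, had 182 against 310 and 312 against 633 UMIs, C3ar1, a complement receptor, 71 against 121 and 154 against 265, and Tlr2, a sensor of bacterial lipoproteins, 7 against 20 and 12 against 41. None of 10 tested monoamine and acetylcholine receptors passed.

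Within a class, positive cells and cells at 0 were close to each other. Among oligodendrocyte precursor-like cells, 43 vehicle and 96 FGF21 pairs had median depths of 7545 against 7530 and 10489 against 10486 UMIs. Their own markers stood at 0.920 (0.880 to 0.961) and 0.969 (0.945 to 0.994) of the level at 0. Astrocyte markers in them stood at 1.13 (1.01 to 1.27) and 1.07 (1.01 to 1.14), and mural markers at 1.37 (1.14 to 1.63) and 0.989 (0.805 to 1.21). None of 11145 genes passed edgeR's test (0%), with 294 at an unadjusted p under 0.05, and DESeq2 called 0 with 3. Cc2d1b, the gene ranked highest by the naming rule, had 13 against 4 and 39 against 14 UMIs, and Crbn, the lowest, 0 against 7 and 15 against 34, each with an adjusted p of 1.00. Fgfr3 had 28 against 25 and 82 against 91 UMIs there, and Fgfr1 44 against 27 and 111 against 103.

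Among microglia-like cells, 27 vehicle and 36 FGF21 pairs had median depths of 4518 against 4518 and 7454.5 against 7449 UMIs. Their microglia markers stood at 1.00 (0.969 to 1.03) and 1.00 (0.975 to 1.03) times the level at 0, and their astrocyte markers at 1.00 (0.748 to 1.34) and 0.857 (0.739 to 0.994). None of 6540 genes passed (0%), with 121 at an unadjusted p under 0.05, and DESeq2 called 0 with 4. Tlr3, a sensor of double-stranded RNA, had 17 against 6 and 22 against 10 UMIs and Ptov1 5 against 15 and 10 against 26, both with an adjusted p of 1.00. On simulated counts of the same size, the test recovered 100% of 3-fold changes in oligodendrocyte precursor-like and 95% in microglia-like cells, and 69% and 57% of 2-fold changes. These changes were planted only in genes with at least 100 UMIs, and all genes were given 1 common spread. Changes under 2-fold, and changes in genes with fewer UMIs, were not simulated, so the recovered shares do not cover them.

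Astrocyte-like cells could be paired for only 18 vehicle and 43 FGF21 cells, with imperfect depth (medians of 5401.5 against 5208 and 7110 against 6104 UMIs), so no test was made. Their astrocyte markers stood at 1.03 (0.973 to 1.09) and 0.997 (0.967 to 1.03) times the level at 0. Fgfr3 had 97 against 107 and 391 against 274 UMIs, ratios of 0.867 (0.652 to 1.15) and 1.21 (1.03 to 1.42). Fgfr1 had 12 against 28 and 87 against 77 UMIs, ratios of 0.410 (0.190 to 0.832) and 0.958 (0.697 to 1.32). Of 7117 genes with enough UMIs, 61 (0.857%) were higher by 2-fold or more in positive cells of both libraries, and 56 (0.787%) lower by as much. Cholesterol synthesis genes summed to 1.13 (0.932 to 1.37) and 1.30 (1.19 to 1.42) times the level at 0. Spry4 had 19 against 2 and 30 against 11 UMIs, and Kalrn, a regulator of the actin skeleton, 13 against 3 and 51 against 14. Microglia markers in these cells stood at 11231 against 11220.5 CPM for vehicle and 9424 against 9750 CPM for FGF21. Medians of mitochondrially encoded UMIs were 7.69% against 9.36% and 8.70% against 8.01%, and their part in these values was not tested.

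When positive cells were paired with cells at 0 of their own class, an alternative added after the data were seen, 129 vehicle and 200 FGF21 pairs formed and 7 and 23 positive cells found no partner. With these pairs 1 gene of 12603 passed edgeR's test, with 511 at an unadjusted p under 0.05. Of the 842 genes called before, 840 were tested, 1 was called and 630 kept their sign. Their median absolute log2 change went from 0.94 to 0.16. The remaining gene was Igfbp5, which encodes a binding protein of insulin-like growth factors, with 101 against 32 and 167 against 68 UMIs (log2 change 1.40, SE 0.197, adjusted p = 1.88e-08). In each library 1 positive cell supplied most of the difference: a fibroblast-like vehicle cell held 66 UMIs and an unnamed FGF21 cell 87, and the other positive cells together held 35 and 80. Without astrocyte-like cells 191 genes passed higher and 133 lower, and without microglia-like cells 278 and 167.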

How the data were processed

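Per the file headers, the authors deposited 2 tables of molecule (UMI) counts with RSEC correction, written by version 1.9.1 of BD's WTA Rhapsody Analysis Pipeline. The genome build was GRCm38, per the submitters' processing notes. Annotation, aligner and cell calling: not given in the sources used here. Positions were looked up by symbol in GENCODE vM21. Genes listed in 1 table only counted as 0 UMIs in the other.

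Barcodes were kept with at least 500 UMIs, 300 genes and at most 25% mitochondrially encoded UMIs, leaving 2354 of 2925 vehicle barcodes (median 4232 UMIs) and 1951 of 2455 FGF21 barcodes (median 6848). Scrublet called 14 and 5 doublets (0.441% of cells), which were kept and left out as an alternative. Cells were clustered with scanpy 1.11.5 without the reporter (2000 variable genes, 30 components, 15 neighbours, Leiden resolution 1.0, 15 clusters). A cluster was named where its best marker z-score led the next by 1.0, a margin set after the clusters were seen, with at least 3 markers in 10% of cells, and not where other markers led its top 10 genes. The single unnamed cluster, of 22 vehicle and 33 FGF21 cells, was led by Top2a, Mki67 and Penk.

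Each positive cell, from the deepest down, was paired without replacement with the nearest cell at 0 within 1.25-fold of its UMIs. Sums were tested with edgeR 4.0.16 (glmQLFit, library as block, total UMIs as library size, at least 20 UMIs over the 4 sums, Benjamini-Hochberg over all genes tested) under R 4.3.3, with DESeq2 1.42.0 as an alternative. Ratios have exact conditional binomial and shares Clopper-Pearson 95% intervals, and log2 ratios used a pseudocount of 0.5 UMIs. Intervals of differences between shares combine those of both sides (Newcombe's square-and-add method with exact limits). PCR duplicates are removed by UMIs, but cells of a pool are not independent animals. On simulated counts of 12771 genes, edgeR recovered 73% of 2-fold and 100% of 3-fold changes and called 0.0795% of unchanged genes. These changes were planted only in genes with at least 100 UMIs, and all genes were given 1 common spread.

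Named genes were the 12 highest and 12 lowest by the smaller of both libraries' log2 ratios (8 and 8 within a class) among genes with at least 50 UMIs, found in 10% of cells of the higher side and with at most 20% of UMIs in 1 cell. To these came the 3 most abundant members of each list, all FGF receptor complex genes, and up to 20 receptors that passed. Some named genes are not reported here. The ranking skipped haemoglobin, ribosomal protein and mitochondrially encoded genes. Other members are named for their list, and Igfbp5, Spry2 and Spry4 after their values were seen. The members and lists were chosen with earlier results of these data known.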

Additional observations from a re-analysis of the deposited data

Results flagged for a closer look

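The summed oligodendrocyte precursor markers stood at 0.861 of the matched level in tdTomato-positive cells of the vehicle library and at 1.1 in the FGF21 library, opposite directions whose difference was not tested. The endothelial markers likewise stood at 0.404 for vehicle and 2.17 for FGF21, and this difference was not tested. Few endothelial-like cells were present: 2 endothelial-like cells stood on each side of the vehicle comparison, and 3 positive against 0 matched in the FGF21 library. Outside the cell filter, 4 vehicle barcodes and 1 FGF21 barcode held at least 2 tdTomato UMIs, of 571 and 504 barcodes left out.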

How the results depend on the processing

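Most recomputed class shares, marker list levels and gene counts stayed near their first values, but the number of genes called over all cells varied widely. Of 72 recomputed class share differences 61 stayed inside the interval first given, and of 82 recomputed gene counts 63 stayed within 1.5 times. The vehicle precursor-like difference turned from 1.48 to -10.3 points with 3 reporter UMIs as the threshold. Of recomputed marker list levels, 28 of the main lists stayed and 12 moved. For the other lists 111 stayed, 28 moved and 1 reversed. Of the named genes' recomputed changes, 1609 kept their direction and side of the threshold, 303 lost the call, 33 gained it and 36 turned direction. The cause of these changes was not tested, except where fewer cells or genes entered by construction. The library was the block in every fit, as both sides came from 1 suspension. The fit within astrocyte-like cells was not run because 18 vehicle pairs were left, under the 20 set.

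Against 503 genes higher and 339 lower, 3 matched cells per positive cell gave 765 and 571, no matching 1695 and 1043, no count filter 265 and 162, and a threshold of 3 reporter UMIs 298 and 128. DESeq2 gave 80 and 39, pairing from the shallowest cell 180 and 111, and matching on genes detected 156 lower. Of the alternatives added after the data were seen, matching within class gave 1 and 0, leaving out astrocyte-like cells 191 and 133, and leaving out microglia-like cells 278 and 167.

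The astrocyte-like differences became 6.08 (vehicle) and 12.4 (FGF21) points with 1 reporter UMI as the threshold, and 37.8 (FGF21) with 3. Microglia-like differences became -12.7 and -13.5 with 1 UMI, and -44.6 and -36.6 without matching. Precursor-like differences became 17.9 and 17.8 without matching and -10.3 (vehicle) with 3 UMIs, and the mural-like one 20.5 (vehicle) with 3 UMIs. The mean log2 ratio of astrocyte markers was 0.96 with 1 UMI, 2.35 with 3, 1.57 with 3 matched cells, 1.58 at 10% mitochondrial UMIs, 1.51 matched on genes and 1.53 unmatched. Microglia markers gave -0.30 with 1 UMI, -0.54 matched on genes and -1.07 unmatched. Precursor markers gave -0.36 with 3 UMIs and 0.52 unmatched, mural markers 0.29 and differentiating precursor markers 0.16 unmatched.

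The share with at least 2 reporter UMIs follows the depth kept. At 4000 UMIs it was 22.6% in FGF21 astrocyte-like, 1.75% and 1.61% in microglia-like and 5.83% and 6.07% in precursor-like cells. At 1000 UMIs it was 3.41% in vehicle astrocyte-like, 0% in FGF21 microglia-like and 0.529% and 0.346% in precursor-like cells.

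Matched within class, the log2 changes turned to -0.0064 for Adora2b, -0.0065 for Atp1b2, -0.0071 for Clic6, 0.0059 for Hba-a1, -0.24 for Atp13a5, 0.45 for Cd163, 0.14 for Cnp, 0.053 for Cx3cr1, -0.19 for Egfr, -0.12 for Grm3, 0.67 for Mrc1, -0.058 for Ntsr2, -0.048 for Rgs5, -0.23 for S1pr3, -0.10 for Slc7a11 and -0.20 for Ttr. Without astrocyte-like cells they turned to -0.027 for Apoe, -0.26 for Glul, -0.37 for Grm3 and -0.10 for Msmo1. Without microglia-like cells they turned to -0.12 for Atp13a5 and 0.022 for Cd300a. Unmatched, they turned to 0.0093 for Bcas1, 0.031 for Cnp, 0.45 for Cspg4, 0.19 for Gpr17, 0.42 for Olig1, 0.49 for Olig2 and 0.37 for Sox10. Mrc1 turned to 0.025 with 1 reporter UMI and 0.52 matched on genes. Leaving out 1 library gave -0.0069 to 1.95 for Clic6, -0.00057 to 2.59 for Dlx1, -1.44 to 0.055 for Hba-a1, -1.58 to 0.14 for Hba-a2 and -1.39 to 0.026 for Hbb-bs. A fit on 1 library has no residual degrees of freedom and gives values with no test.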
